A study of Arabidopsis thaliana with 6 samples.

Results

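The genes described are 10 regulators of trichome and epidermal cell fate in Arabidopsis thaliana, chosen by locus identifier from a table of 38194 genes. They comprise the MIXTA-like R2R3 MYB genes MYB106 and MYB16, the activator complex genes GL1, GL3, EGL3 and TTG1, the R3 MYB inhibitor genes TRY, CPC and ETC1, and the homeodomain gene GL2. Messenger RNA was measured by strand-marked, poly(A)-selected RNA-seq in whole seedlings collected 7 days after stratification and grown in long days on MS medium with sucrose and agar. The groups were wild-type Col-0, the reference accession, and an sqtl1 RNAi genotype in Col-0, with 3 biological replicates in each. The replicates of the RNAi genotype carry the mark sh1 in their sample names, which the sources used here do not explain. Those sources do not give the RNAi target, its construct and promoter or the number of independent lines either, and the knockdown itself was not analysed here.

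In the shoot epidermis, an R2R3 MYB protein such as GL1, a bHLH protein such as GL3 or EGL3 and the WD40 protein TTG1 form a complex that switches on GL2 and so starts a trichome. The same complex switches on small R3 MYB genes, whose proteins move into neighbouring cells, compete with the R2R3 MYB for the bHLH partner and keep those cells from becoming trichomes. In the root epidermis a sister complex with WER in place of GL1 drives GL2 in hairless cells, and CPC moves into the adjacent files, which form root hairs. MYB106 and MYB16 act later in epidermal differentiation: both promote cuticle formation, and MYB106 restrains trichome branching.

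Values are RPKM, reads per kilobase of gene length and scaled to mapped reads, so levels can be set beside each other between genes as well as between libraries. The smallest steps between low RPKM values gave a scaling depth of 36.1 to 47.4 M (mega) reads for Col-0 libraries and 44.9 to 50.7 M for RNAi libraries. At those steps the reads assigned to genes summed to 38.0 to 49.9 M and 43.7 to 47.0 M. That sum was above the scaling depth in every Col-0 library and below it in every RNAi library, and the reason was not tested. The groups differed widely: 52.6% of the 19458 genes averaging 1 RPKM or more passed an adjusted p of 0.05 in limma (a moderated test on log2(RPKM + 1), Benjamini-Hochberg adjusted over all genes tested), 25.2% as higher and 27.5% as lower in the RNAi line. On the first principal component, which held 82.4% of the variance, RNAi replicate 3 scored 21.7, nearer to the Col-0 libraries at -38.8 to -37.0 than RNAi replicates 1 and 2 at 49.8 and 42.6. Both organ systems of a seedling were present in all 6 libraries. The summed level of 6 photosynthetic shoot genes was 41658 to 44125 RPKM in Col-0 and 18264.5 to 28838 RPKM in the RNAi line. All 6 of these genes passed as lower, RBCS1A, LHCB1.3, PSAF and LHCA1 by 1.74-fold, 2.07-fold, 2.02-fold and 2.61-fold, although under quantile normalization the log2 fold change was 0.10 for RBCS1A and -0.10 for LHCB1.3 and only 2 of the 6 passed. With 1 library left out, between 2 and 6 of the 6 passed, the lower counts being 2 without Col-0 replicate 1, Col-0 replicate 2 or RNAi replicate 2 and 3 without Col-0 replicate 3. The calls of RBCS1A and LHCB1.3 were lost without any 1 of the 3 Col-0 libraries or RNAi replicate 2, with limma adjusted p between 0.0756 and 0.0905 for RBCS1A and between 0.0505 and 0.0603 for LHCB1.3. When genes of all levels entered the fit, these 6 genes did not pass in limma (adjusted p from 0.0801 for PSAF to 0.979 for RBCS1A), whereas all 6 did with voom weights on estimated reads. The 6 root genes summed to 3665 to 3843 RPKM in Col-0 and 2825 to 4106 RPKM in the RNAi line, and these ranges overlapped. In that list SHR and SCR, regulators of the root ground tissue, passed as higher by 1.28-fold and 1.16-fold, while CASP1 of the Casparian strip and the phosphate exporter PHO1 passed as lower by 1.55-fold and 1.23-fold. PHO1 lost its call without Col-0 replicate 1, Col-0 replicate 2 or RNAi replicate 2, at adjusted p of 0.0890, 0.0883 and 0.0690. In whole seedlings, fewer cells of a type and less RNA per cell cannot be told apart, and the part of these tissue levels in the results that follow was not tested.

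Among the 10 regulators, 7 averaged 1 RPKM or more and were tested, and GL1, GL3 and TRY lay below that level. MYB106 passed the filter through its Col-0 values and ETC1 through its RNAi values, so for both genes a call in the other direction could hardly arise. In the RNAi line MYB106, MYB16, TTG1 and GL2 fell and EGL3 rose, while CPC and ETC1 did not pass the test. These are 5 calls among 7 genes tested, beside 52.6% called over all genes tested, and nothing is read from so small a difference in shares. The size of the decreases was less common: 4.77% of genes tested had a mean at least 2-fold lower in the RNAi line, a range that included GL2, and 0.0257%, or 5 genes, were at least 40-fold lower, with MYB106 the fifth of them. That ranking leaves out genes below the filter, among them the cuticle gene SHN2, whose difference in means was 98-fold. The groups did not overlap for 7 of the 10 genes, MYB106, MYB16, GL1, EGL3, TTG1, TRY and GL2, beside 39.4% of all genes in the table. Among the 7 tested genes the groups did not overlap for 5, beside 64.1% of genes tested, of which 31.1% were higher and 33% lower. In a fit without that filter, 1 of the 10 passed as higher and 6 as lower, beside 25.5% of 38194 genes in either direction, 12.7% higher and 12.9% lower. With voom weights on estimated reads and no filter, 1 passed as higher and 5 as lower, beside 28.1% in either direction, 14% higher and 14.1% lower. The median log2 fold change of the 7 was -0.30, beside -0.01 over all genes tested.

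**Figure D1:**
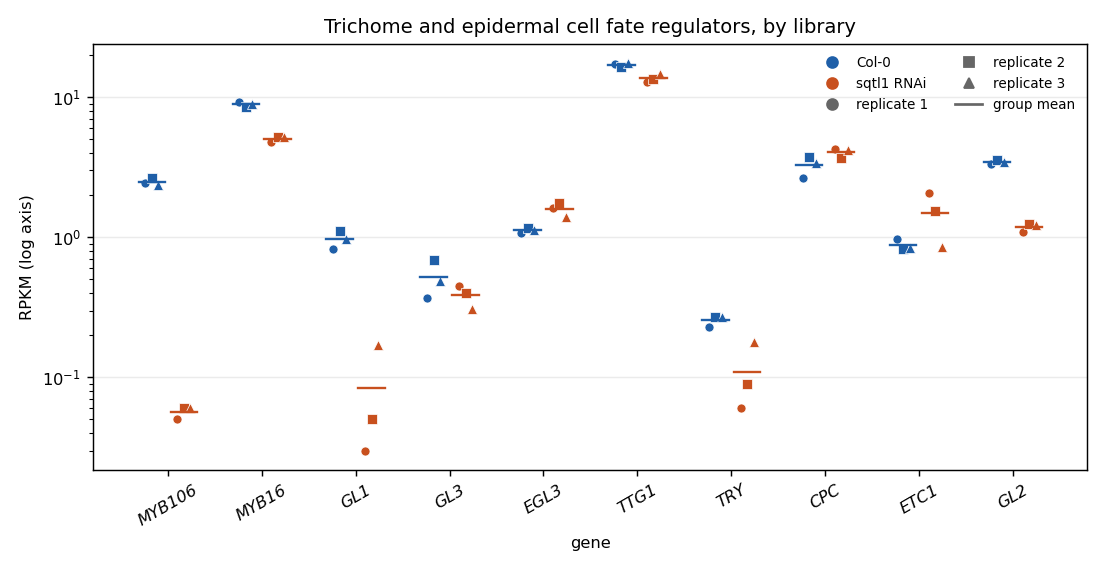
RPKM of the 10 regulators (log axis) in each of the 3 Col-0 libraries (blue) and 3 sqtl1 RNAi libraries (orange); marker shapes give the replicate number and bars the group means. MYB106 lay between 2.35 and 2.64 RPKM in Col-0 and between 0.05 and 0.06 RPKM in the RNAi line, and GL1 and GL2 were also lower in every RNAi library than in every Col-0 library, whereas the values of GL3, CPC and ETC1 overlapped.

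MYB106 (AT3G01140), also known as NOECK, had the largest fold difference of the 10. It measured 2.43, 2.64 and 2.35 RPKM in Col-0 replicates 1 to 3 and 0.05, 0.06 and 0.06 RPKM in the RNAi replicates. Every Col-0 value was far above every RNAi value, and the spread within each group was small. The group means were 2.47 ± 0.150 RPKM and 0.0567 ± 0.00577 RPKM (SD, n = 3 each), a 43.6-fold decrease. The log2 fold change was -1.72 (SE 0.08, limma adjusted p = 7.97e-05). That scale, log2(RPKM + 1), understates the change of so low a gene: with a pseudocount of 0.1 it was -4.04. The estimated reads behind these values were 510 over the Col-0 libraries and 12 over the RNAi libraries, a 47.3-fold difference per unit of depth with an exact 95% interval of 26.8-fold to 92.1-fold. Such intervals cover counting error only. The RNAi libraries lay just above the level of 3 reads per library, which was 0.0366 to 0.0413 RPKM for this gene.

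A long non-coding RNA gene, AT3G01142, lies across MYB106 and shares 1579 of its 1967 bases of gene span in the RefSeq annotation of TAIR10.1. It measured 4.27, 3.84 and 4.21 RPKM in Col-0 and 3.66, 3.30 and 3.72 RPKM in the RNAi line. All 3 RNAi values were below all Col-0 values, but by a narrow margin, and the difference did not pass the test (log2 fold change -0.16, limma adjusted p = 0.0789). The sources used here do not say whether reads were assigned by strand. Without strand, reads from the shared bases of MYB106 and AT3G01142 could not be told apart. In the RNAi libraries the values given to them nonetheless differed, at 0.05 to 0.06 RPKM for MYB106 and 3.30 to 3.72 RPKM for AT3G01142. How reads in the shared bases were assigned was not tested. Both flanking protein-coding genes passed the test, with changes far smaller than that of MYB106. AT3G01130 rose 1.28-fold, from 45.8 ± 3.11 to 58.5 ± 6.30 RPKM (limma adjusted p = 0.0184). PTB1, a polypyrimidine tract-binding protein gene, fell 1.13-fold, from 14.8 ± 0.455 to 13.1 ± 0.318 RPKM (adjusted p = 0.0261).

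MYB16 (AT5G15310), the closest relative of MYB106 and a regulator of cuticle formation and of petal cell shape, was the more abundant of the pair. It measured 9.28, 8.5 and 8.88 RPKM in Col-0 and 4.78, 5.18 and 5.22 RPKM in the RNAi line. The groups were well separated, and no library of either group stood apart from its own group. The mean fell from 8.89 ± 0.39 to 5.06 ± 0.243 RPKM, a 1.76-fold decrease (log2 fold change -0.71, SE 0.06, limma adjusted p = 0.000351). Within a library, MYB106 stood at 0.262 to 0.311 of the MYB16 level in Col-0 and at 0.0105 to 0.0116 of it in the RNAi line. The pair of genes was therefore lowered to unequal degrees in every RNAi library, and the ranges of this ratio did not come near each other.

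The sequences just before the annotated start of both genes, read from the RefSeq TAIR10.1 genome, are printed because the 2 genes moved in the same direction. TAIR10, the build named in the submitters' processing notes, has the same nuclear chromosome sequences. Each run covers the 250 bases before the start, 5′ to 3′ on the gene's own strand, at chr3:48297-48546 on the minus strand for MYB106 and chr5:4974421-4974670 on the plus strand for MYB16. Capitals mark their best local alignment, in which 16 of 17 positions are identical. The stretch lies 47 to 31 bases before the start of MYB106 and 249 to 233 bases before that of MYB16.
MYB106: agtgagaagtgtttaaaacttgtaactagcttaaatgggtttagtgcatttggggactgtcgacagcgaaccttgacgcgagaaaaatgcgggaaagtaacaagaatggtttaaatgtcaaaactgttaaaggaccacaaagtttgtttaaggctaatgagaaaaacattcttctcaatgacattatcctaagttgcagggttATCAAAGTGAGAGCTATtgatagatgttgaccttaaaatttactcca
MYB16: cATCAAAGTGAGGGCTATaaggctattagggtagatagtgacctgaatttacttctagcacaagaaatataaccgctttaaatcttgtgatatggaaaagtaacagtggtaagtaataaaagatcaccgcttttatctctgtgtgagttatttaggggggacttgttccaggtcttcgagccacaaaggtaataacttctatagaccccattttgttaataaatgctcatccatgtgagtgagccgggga
Among all 45 pairs of the 10 windows this alignment shared the highest score, 29, with the pair of EGL3 and TRY, whose aligned stretch was longer, at 34 columns, and less exact, at 27 identical positions. A shared stretch is a description of the sequences and says nothing about a factor.

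GL1 (AT3G27920), the R2R3 MYB that gives the trichome complex its shoot specificity, was close to the detection level in the RNAi libraries. It measured 0.83, 1.11 and 0.97 RPKM in Col-0 and 0.03, 0.05 and 0.17 RPKM in the RNAi line. No RNAi value came near the Col-0 values, and RNAi replicate 3 was the highest of its group. In estimated reads these were 34.9, 37.5 and 43.1 in Col-0 and 1.1, 2.1 and 6.9 in the RNAi line, so replicates 1 and 2 were under the level of 3 reads. The ratio of reads per unit of depth was 12.8-fold, with an exact 95% interval of 6.71-fold to 27.4-fold, and that of the mean RPKM, 0.970 ± 0.14 against 0.0833 ± 0.0757, was 11.6-fold. Without RNAi replicate 3 the ratio of means was 24.3-fold. The gene was under the filter on low values. In a fit with no filter, in which 12.9% of all genes passed as lower, its log2 fold change was -0.86 (SE 0.08, limma adjusted p = 0.00406), and with voom weights on estimated reads, in which 14.1% passed as lower, -3.77 (SE 0.53, adjusted p = 0.00337). The adjacent gene DEG1, a chloroplast protease, fell from 49.1 ± 2.06 to 24.6 ± 2.56 RPKM (adjusted p = 0.000362).

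The bHLH partners GL3 and EGL3 act redundantly in trichome initiation. GL3 (AT5G41315) measured 0.37, 0.69 and 0.49 RPKM in Col-0 and 0.45, 0.40 and 0.31 RPKM in the RNAi line. The groups overlapped, and Col-0 replicate 2 stood highest. Its means of 0.517 ± 0.162 and 0.387 ± 0.0709 RPKM were below the filter, and with no filter the log2 fold change was -0.13 (SE 0.09, limma adjusted p = 0.439), a difference within the spread between libraries.

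EGL3 (AT1G63650) was the only 1 of the 10 that passed the test as higher. It measured 1.08, 1.17 and 1.12 RPKM in Col-0 and 1.63, 1.76 and 1.39 RPKM in the RNAi line. All RNAi values were above all Col-0 values, with RNAi replicate 3 the closest to them. The mean rose from 1.12 ± 0.0451 to 1.59 ± 0.188 RPKM, a 1.42-fold increase (log2 fold change 0.29, SE 0.08, limma adjusted p = 0.0246). The call was lost when any of 5 libraries was left out, at adjusted p of 0.0764, 0.0593 and 0.0738 without Col-0 replicates 1, 2 and 3 and of 0.0521 and 0.0900 without RNAi replicates 1 and 2. Without RNAi replicate 3 it held, at 0.0101. Within a library EGL3 stood at 1.70 to 2.92 times the GL3 level in Col-0 and at 3.62 to 4.48 times in the RNAi line, so EGL3 was the more abundant bHLH gene in all 6 libraries.

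TTG1 (AT5G24520), the WD40 scaffold shared by the trichome, root hair, anthocyanin and seed coat mucilage pathways, was the most abundant of the 10 genes in both groups. It measured 17.32, 16.49 and 17.46 RPKM in Col-0 and 12.93, 13.40 and 14.67 RPKM in the RNAi line. The groups did not overlap, and RNAi replicate 3 was again nearest to Col-0. The mean fell from 17.1 ± 0.524 to 13.7 ± 0.9 RPKM, a 1.25-fold decrease (log2 fold change -0.30, SE 0.06, limma adjusted p = 0.00607). The summed level of the 4 complex genes was 19.5 to 20.0 RPKM in Col-0 and 15.0 to 16.5 RPKM in the RNAi line, most of it TTG1.

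Among the R3 MYB inhibitors the mean of TRY was lower in the RNAi line and those of CPC and ETC1 higher, but neither CPC nor ETC1 passed the test. TRY (AT5G53200), which acts mainly in the spacing of leaf trichomes, measured 0.23, 0.27 and 0.27 RPKM in Col-0 and 0.06, 0.09 and 0.18 RPKM in the RNAi line. The groups did not overlap, and RNAi replicate 3 lay closest to Col-0. These values rest on an estimated 29 reads in Col-0 but 13 in the RNAi line, and replicate 1 of the RNAi line was under the level of 3 reads. The means were 0.257 ± 0.0231 and 0.110 ± 0.0624 RPKM, and the ratio of reads per unit of depth was 2.48-fold with an exact 95% interval of 1.25-fold to 5.20-fold. TRY was under the filter. With no filter its log2 fold change was -0.18 (SE 0.04, limma adjusted p = 0.0456), and with voom weights on estimated reads it was -1.31 and did not pass (adjusted p = 0.0632).

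CPC (AT2G46410), the mobile inhibitor best known for promoting root hairs, measured 2.67, 3.77 and 3.41 RPKM in Col-0 and 4.27, 3.69 and 4.23 RPKM in the RNAi line. Col-0 replicate 2 was above RNAi replicate 2, so the groups overlapped. The means were 3.28 ± 0.561 and 4.06 ± 0.324 RPKM (log2 fold change 0.25, SE 0.11, limma adjusted p = 0.0989). ETC1 (AT1G01380), a redundant inhibitor in leaf and root epidermis, measured 0.97, 0.82 and 0.84 RPKM in Col-0 and 2.06, 1.55 and 0.85 RPKM in the RNAi line. RNAi replicates 1 and 2 were above all Col-0 values, while RNAi replicate 3 lay among them. The means were 0.877 ± 0.0814 and 1.49 ± 0.607 RPKM (log2 fold change 0.38, SE 0.18, adjusted p = 0.123). Without RNAi replicate 3 ETC1 passed as higher, with a log2 fold change of 0.57 and an adjusted p of 0.00466. TRY, CPC and ETC1 together summed to 3.87 to 4.86 RPKM in Col-0 and 5.26 to 6.39 RPKM in the RNAi line, with CPC the largest contributor.

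GL2 (AT1G79840), an HD-ZIP IV transcription factor that executes trichome fate in the shoot and represses hair fate in root hairless cells, is the direct target of the complex. It measured 3.34, 3.58 and 3.43 RPKM in Col-0 and 1.09, 1.25 and 1.22 RPKM in the RNAi line. The values were tight within each group and far apart between them, and RNAi replicate 3 did not stand nearer to Col-0 than the others. The mean fell from 3.45 ± 0.121 to 1.19 ± 0.0850 RPKM, a 2.91-fold decrease (log2 fold change -1.03, SE 0.07, limma adjusted p = 0.000201). Estimated reads were 1398 in Col-0 but 536 in the RNAi line. The non-coding gene AT1G09927 overlaps GL2 by 155 bases and measured 0.893 ± 0.260 RPKM in Col-0 and 0.687 ± 0.0603 RPKM in the RNAi line.

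Set against the inhibitor CPC in the same library, both of the lowered trichome genes changed their proportion. GL1 stood at 0.285 to 0.311 of the CPC level in Col-0 and at 0.00703 to 0.0402 of it in the RNAi line. GL2 stood at 0.9496 to 1.25 times the CPC level in Col-0 and at 0.255 to 0.339 times in the RNAi line. For both ratios every RNAi library lay below every Col-0 library. GL1 and GL2 alone already separated the groups, and the mean of CPC was not lower. The separation of the ratios is therefore no further result.

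The GL1 and GL2 windows are printed because both genes belong to the same step of trichome initiation and were low in the RNAi line. Capitals mark the E-box, CANNTG, and the MYB core in the form CNGTTG, wherever a search of both strands found them. The windows cover the 250 bases before the annotated start in TAIR10.1, at chr3:10363608-10363857 on the minus strand for GL1 and chr1:30036706-30036955 on the plus strand for GL2.
GL1: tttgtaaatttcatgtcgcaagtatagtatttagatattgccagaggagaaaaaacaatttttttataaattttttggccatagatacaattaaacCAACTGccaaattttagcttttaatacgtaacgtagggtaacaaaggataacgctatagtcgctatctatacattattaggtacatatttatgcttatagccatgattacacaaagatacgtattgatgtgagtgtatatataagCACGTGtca
GL2: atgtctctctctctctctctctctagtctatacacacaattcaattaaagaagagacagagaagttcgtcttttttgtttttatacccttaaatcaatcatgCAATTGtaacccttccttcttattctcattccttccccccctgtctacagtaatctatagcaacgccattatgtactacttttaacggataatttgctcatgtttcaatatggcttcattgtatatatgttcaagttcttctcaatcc
In the GL1 window the match 154 bases before the start, which the search reads as CAACTG, matches both motifs at once, and a further E-box lies 9 bases before the start. The GL2 window holds 1 E-box, 148 bases before the start, and no CNGTTG on either strand. Other forms of the MYB core were not searched. Over the 10 genes the E-box was found in 8 windows and CNGTTG in 2, GL1 and CPC. These motifs occur in 55.3% and 20.3% of 27443 such windows in the genome. The string TAAATGNA, which is looser than the L1 box of epidermal genes, was found before TRY alone of the 10, and in 9.91% of all windows. The match before TRY reads TAAATGGA and is not taken here as an L1 box. The stricter form was not counted. A match describes the letters of a window and is no evidence of binding.

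**Figure D2:**
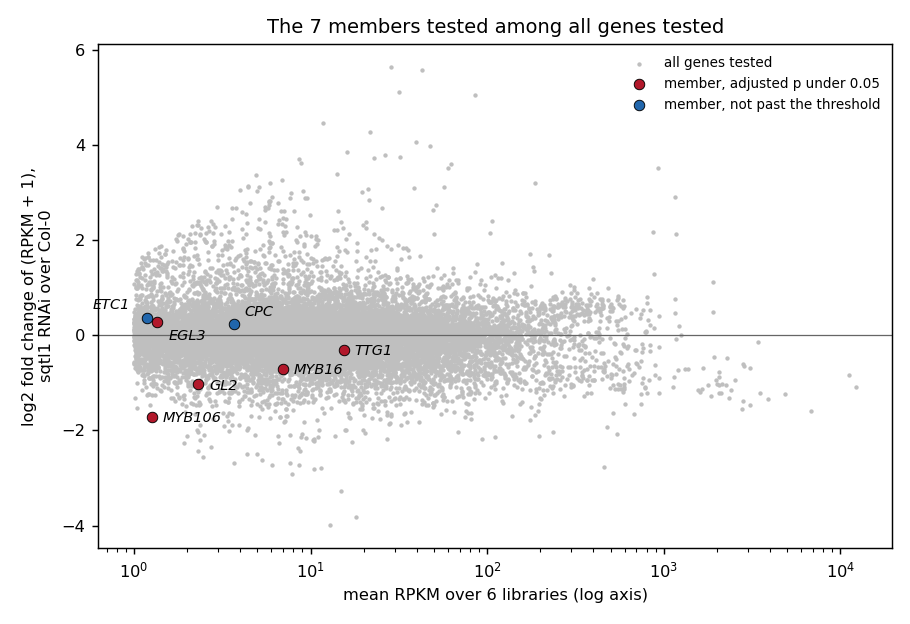
Log2 fold change of (RPKM + 1) in the sqtl1 RNAi line over Col-0 against mean RPKM over the 6 libraries (log axis); grey points are all 19458 genes tested, red points are regulators with adjusted p under 0.05 and blue points are regulators that did not pass. MYB106 at -1.72 and GL2 at -1.03 lie among the lower points for their level, while EGL3, CPC, ETC1 and TTG1 lie within it.

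In Col-0 the order of the group means from high to low was TTG1, MYB16, GL2, CPC, MYB106, EGL3, GL1, ETC1, GL3 and TRY. The library values of GL2 and CPC overlapped, as did those of EGL3 and GL1 and of GL1 and ETC1, so those neighbours were not separated. In the RNAi line the order was TTG1, MYB16, CPC, EGL3, ETC1, GL2, GL3, TRY, GL1 and MYB106. There EGL3, ETC1 and GL2 overlapped as neighbours, as did TRY, GL1 and MYB106. MYB106 went from the fifth place to the last. Summed over all 10 genes, the level was 38.5 to 39.2 RPKM in Col-0 and 27.4 to 28.3 RPKM in the RNAi line.

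The other R3 MYB genes of the family were all lower in the mean. ETC2, like MYB23, TMM and EPF2 among the genes described later, passed the filter only through its Col-0 values, and TT8 and 5GT only through their RNAi values, so for these genes a call in the other direction could hardly arise. The tested genes ETC2 and TCL2 both passed as lower, beside 27.5% over all genes tested. ETC2, an inhibitor linked to natural variation in trichome number, fell from 1.90 ± 0.147 to 0.550 ± 0.113 RPKM, 3.45-fold (log2 fold change -0.90, limma adjusted p = 0.000592). TCL2 fell from 5.90 ± 0.490 to 2.83 ± 0.175 RPKM, 2.09-fold (log2 fold change -0.85, adjusted p = 0.000398). TCL1, which represses GL1, was under the filter and measured 1.38, 1.94 and 1.58 RPKM in Col-0 and 0.09, 0.32 and 0.38 RPKM in the RNAi line. Its groups were far apart, and with no filter it passed (adjusted p = 0.00722). ETC3 measured 0.83, 0.78 and 0.70 RPKM in Col-0 and 0.50, 0.25 and 0.56 RPKM in the RNAi line and did not pass with no filter (adjusted p = 0.0820). The sum of these 4 genes was 9.47 to 11.1 RPKM in Col-0 and 3.84 to 4.30 RPKM in the RNAi line. The sum of TRY, CPC and ETC1 was higher in the RNAi line, but CPC, its largest contributor, did not pass the test.

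Of the R2R3 MYB and bHLH genes that can stand in for GL1 or for GL3 and EGL3, 4 of 6 were tested, and 2 passed as higher and 1 as lower, beside 25.2% and 27.5% over all genes tested. WER, the root counterpart of GL1, measured 2.34, 3.06 and 1.79 RPKM in Col-0 and 7.05, 6.38 and 3.43 RPKM in the RNAi line. All RNAi values were higher, replicate 3 least so, and the mean rose 2.34-fold (log2 fold change 0.93, SE 0.25, limma adjusted p = 0.0192). The call of WER was lost with no filter (adjusted p = 0.0802) and without Col-0 replicate 1, Col-0 replicate 3 or RNAi replicate 2, at 0.0610, 0.0689 and 0.0684. MYB23, the closest relative of GL1 in trichomes, measured 1.96, 3.27 and 2.73 RPKM in Col-0 and 0.73, 0.88 and 0.82 RPKM in the RNAi line. No values overlapped, and its mean fell 3.28-fold (log2 fold change -0.998, SE 0.14, adjusted p = 0.00174). TT8, the bHLH of flavonoid synthesis, measured 0.21, 0.28 and 0.22 RPKM in Col-0 and 4, 2.55 and 1.40 RPKM in the RNAi line. Its mean rose 11.2-fold (log2 fold change 1.498, adjusted p = 0.00330), with RNAi replicate 1 highest. MYC1, a further bHLH partner, had means of 2.15 ± 0.0929 and 1.79 ± 0.325 RPKM and did not pass (adjusted p = 0.1696). MYB5, a regulator of seed coat and trichomes, was listed at 0.15, 0.22 and 0.30 RPKM in Col-0 and at 0, 0.03 and 0.04 RPKM in the RNAi line, and MYB82 was between 0.09 and 0.29 RPKM in all libraries with overlapping groups.

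**Figure D3:**
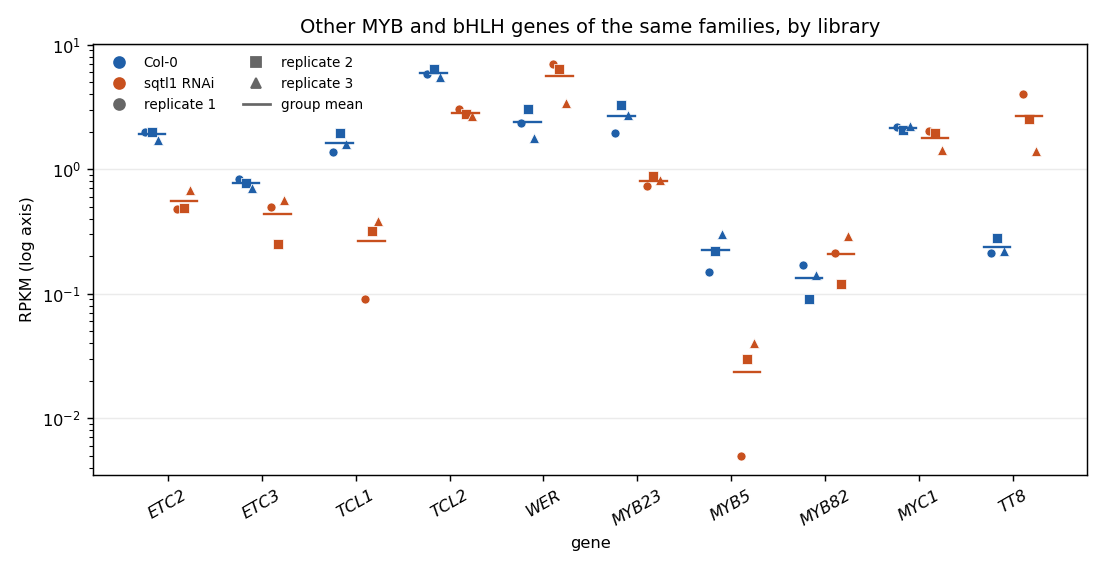
RPKM (log axis) of 4 other R3 MYB genes and 6 other R2R3 MYB and bHLH genes in each Col-0 (blue) and sqtl1 RNAi (orange) library, with group means as bars; the value of 0 for MYB5 in RNAi replicate 1 is drawn at the lower limit of 0.005. ETC2, ETC3, TCL1, TCL2, MYB23, MYB5 and MYC1 were lower and WER and TT8 higher in every RNAi library than in every Col-0 library. Such separation was seen for 39.4% of all genes in the table and 64.1% of genes tested. MYC1 did not pass the test, and ETC3 did not pass in the fit with no filter.

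Many of the HD-ZIP IV relatives of GL2 specify the outer cell layer. Of 11 genes 7 were tested, and 2 passed as higher and 2 as lower, a share close to the 25.2% and 27.5% over all genes tested. HDG1, a cuticle-related member, rose from 5.84 ± 0.285 to 9.01 ± 0.540 RPKM, 1.54-fold (log2 fold change 0.55, limma adjusted p = 0.000922), and HDG7 rose from 1.59 ± 0.0907 to 2.93 ± 0.846 RPKM (adjusted p = 0.0208). ATML1, a master regulator of epidermal identity, fell from 11.1 ± 0.694 to 9.76 ± 0.153 RPKM (adjusted p = 0.0414), and HDG2, which promotes trichome and stomatal development, fell from 2.42 ± 0.108 to 1.65 ± 0.444 RPKM (adjusted p = 0.0399). Leaving out 1 library ended the last 3 calls. For HDG7 the adjusted p was 0.0573 to 0.0705 without any 1 Col-0 library or RNAi replicate 2, for HDG2 0.0646 to 0.116 without any 1 library other than RNAi replicate 1, and for ATML1 0.0644 to 0.121 without any 1 library other than RNAi replicate 1. PDF2, the partner of ATML1 in epidermal identity, had overlapping means of 12.04 ± 0.971 and 12.7 ± 2.38 RPKM (adjusted p = 0.725). ANL2, a regulator of anthocyanin and root cell identity, had means of 16.0 ± 0.977 and 13.7 ± 1.59 RPKM (adjusted p = 0.0838), and HDG12, which acts with HDG11 in trichome branching, 1.36 ± 0.0850 and 1.22 ± 0.119 RPKM (adjusted p = 0.369).

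The other 4 HD-ZIP IV genes were below the filter. HDG5 measured 1.14, 1.03 and 1.00 RPKM in Col-0 and 0.37, 0.36 and 0.44 RPKM in the RNAi line, and with no filter it passed as lower (limma adjusted p = 0.00276). HDG4 measured 0.02, 0.05 and 0 RPKM in Col-0 and 0.69, 0.72 and 0.47 RPKM in the RNAi line, and with no filter it passed as higher (adjusted p = 0.00537). HDG4 was thus at or near 0 in Col-0 and measurable in every RNAi library. Its direction was the opposite of that of GL2, which was measurable in every library of both groups. HDG11 had means of 0.740 ± 0.0985 and 0.510 ± 0.115 RPKM and did not pass (adjusted p = 0.112), and HDG3 was listed at 0 in all libraries. The summed level of the family apart from GL2 was 50.3 to 55.2 RPKM in Col-0 and 52.1 to 53.0 RPKM in the RNAi line, so the ranges overlapped.

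Of 9 tested regulators that act upstream of the complex, 6 passed as lower and 2 as higher, beside 27.5% and 25.2% over all genes tested, and with 1 library left out 4 to 6 passed as lower. The list mixes activators of trichome initiation with other regulators, some of them of root patterning, so its counts give no direction for the complex. SPL3, a promoter of the phase change from juvenile to adult growth, fell 2.72-fold, from 6.18 ± 0.535 to 2.27 ± 1.06 RPKM (log2 fold change -1.18, limma adjusted p = 0.00445). SCM, the receptor-like kinase that positions root epidermal cell fate, fell 1.63-fold (adjusted p = 0.000297). The zinc finger genes ZFP5 and ZFP6, activators of trichome initiation, fell 1.81-fold (adjusted p = 0.0103) and 1.40-fold (adjusted p = 0.0160), and the call of ZFP6 was lost without Col-0 replicate 1 (0.0542) or Col-0 replicate 2 (0.0601). TOE2, an AP2-like repressor of flowering, rose 1.66-fold (adjusted p = 0.000604), and JKD, a zinc finger protein that acts from the root cortex on epidermal patterning, rose 1.61-fold (adjusted p = 0.000570).

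Of 7 tested genes of later trichome differentiation, 2 passed as higher, 1 as lower and 4 did not pass, a share not above the 52.6% over all genes tested. With 1 library left out, 1 to 3 passed as higher. The summed level of all 8 was 131 to 138 RPKM in Col-0 and 134 to 142 RPKM in the RNAi line. Several of these genes act widely outside trichomes. TTG2, a WRKY target of the complex in trichomes and seed coat, rose 2.58-fold, from 1.22 ± 0.274 to 3.14 ± 0.863 RPKM (log2 fold change 0.89, limma adjusted p = 0.00573). TBR, needed for secondary wall cellulose in trichomes, fell 1.29-fold (adjusted p = 0.00621). KAK, a ubiquitin ligase that limits trichome endoreduplication, rose 1.13-fold (adjusted p = 0.0201), a call lost without Col-0 replicate 2, Col-0 replicate 3 or RNAi replicate 2 (0.0803, 0.0789 and 0.0672).

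In the root hair list, 9 of 10 genes were tested, and 1 passed as higher, 1 as lower and 7 did not pass, beside 52.6% called over all genes tested. The count of higher genes rested on single libraries: it was 7 without RNAi replicate 3 and 0 without Col-0 replicate 2, Col-0 replicate 3 or RNAi replicate 2. The pair that passed are bHLH regulators of hair growth that moved in opposite directions. RSL4 rose 2.202-fold, from 2.36 ± 0.617 to 5.20 ± 1.59 RPKM (limma adjusted p = 0.0164), and RSL2 fell 2.29-fold, from 3.90 ± 0.599 to 1.70 ± 0.517 RPKM (adjusted p = 0.00502). The call of RSL4 was lost without Col-0 replicate 2, Col-0 replicate 3 or RNAi replicate 2 (0.0569, 0.0612 and 0.0546). Summed over the list, the level was 90.7 to 109 RPKM in Col-0 and 173, 163 and 83.1 RPKM in RNAi replicates 1 to 3, with replicate 3 below all Col-0 libraries and the other RNAi libraries above them.

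Late anthocyanin genes, which a complex of TTG1 and TT8 with PAP-type MYBs drives, were high in the RNAi line. Of 5 tested, 4 passed as higher, beside 25.2% over all genes tested, and UF3GT did not pass. DFR, the entry enzyme of the branch, measured 0.91, 1.14 and 1.87 RPKM in Col-0 and 21.56, 11.67 and 4.31 RPKM in the RNAi line. The groups did not overlap, and the RNAi libraries differed widely, replicate 1 being highest and replicate 3 lowest. The means of DFR, LDOX, 5GT and the transport gene GSTF12 rose 9.58-fold, 8.15-fold, 9.63-fold and 9.81-fold (limma adjusted p = 0.00818, 0.0119, 0.0201 and 0.00523). Without RNAi replicate 1 these were 6.12-fold, 5.05-fold, 5.68-fold and 6.27-fold. The call of 5GT was lost without any 1 Col-0 library or RNAi replicate 2, at adjusted p of 0.0529 to 0.0654, and with voom weights on estimated reads (0.0670). In limma with no filter LDOX and 5GT did not pass (0.0588 and 0.0850). With voom weights and no filter DFR, LDOX and 5GT did not pass (adjusted p = 0.0575, 0.0763 and 0.108), whereas GSTF12 did (0.0451). The list summed to 4.73 to 7.34 RPKM in Col-0 and 17.6 to 93.8 RPKM in the RNAi line.

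Of 10 tested cuticle genes, among them targets of MYB106 and MYB16, 6 passed as lower and 2 as higher, beside 27.5% and 25.2% over all genes tested. With 1 library left out, 4 to 7 passed as lower and 1 to 3 as higher. GPAT6, an acyltransferase of cutin synthesis, fell 2.63-fold, from 9.06 ± 0.557 to 3.45 ± 1.33 RPKM (limma adjusted p = 0.00275). LACS1, an acyl-CoA synthetase of wax and cutin synthesis, fell 2.47-fold, from 13.7 ± 0.119 to 5.53 ± 1.10 RPKM (adjusted p = 0.000567). The cutin hydroxylase gene CYP86A4 fell 2.31-fold (adjusted p = 0.000825), and CER1 of alkane synthesis fell 2.44-fold (adjusted p = 0.0228), a call lost without any 1 Col-0 library (0.0639 to 0.0725). BDG, an extracellular enzyme of cutin assembly, rose 1.71-fold (adjusted p = 0.00287), and CER3, the partner of CER1, rose 1.18-fold (adjusted p = 0.0184), a call lost without Col-0 replicate 1, Col-0 replicate 3 or RNAi replicate 2 (0.0503, 0.0757 and 0.0710). The list as a whole summed to 250 to 268 RPKM in Col-0 and 207 to 252 RPKM in the RNAi line.

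A pair of cuticle genes below the filter, named after their values were seen, came close to the pattern of MYB106. SHN2, an AP2 factor of the SHINE group of cuticle regulators, measured 1.71, 1.69 and 1.5 RPKM in Col-0 and 0.01, 0.01 and 0.03 RPKM in the RNAi line. Its difference in means was 98-fold, more than that of MYB106, but it rests on RNAi values close to 0. CYP77A6, which makes the main cutin monomer of flowers, measured 1.5, 1.66 and 1.83 RPKM in Col-0 and 0.12, 0.12 and 0.11 RPKM in the RNAi line, a 14.3-fold difference in means. Every RNAi value of both genes was far below every Col-0 value, and with no filter both passed (limma adjusted p = 0.000644 and 0.00129).

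Stomata are the other specialised product of the shoot epidermis. Of 4 genes tested from the stomatal lineage, TMM and EPF2 passed as lower, beside 27.5% over all genes tested, and the bHLH genes FAMA and SCRM did not pass (limma adjusted p = 0.0639 and 0.164), SCRM being higher in the mean. TMM, a receptor-like protein that spaces stomata, fell 5.73-fold, from 2.90 ± 0.181 to 0.507 ± 0.122 RPKM (log2 fold change -1.38, limma adjusted p = 0.000201). EPF2, the peptide that limits entry into the lineage, fell 7.15-fold, from 2.07 ± 0.239 to 0.290 ± 0.0300 RPKM (log2 fold change -1.25, adjusted p = 0.000240). Together the 7 lineage genes summed to 21.9 to 24.6 RPKM in Col-0 and 17.7 to 20.9 RPKM in the RNAi line. Among genes for seed coat mucilage, also under TTG1 and GL2, MUM4 rose 1.27-fold (adjusted p = 0.0150), a call lost without Col-0 replicate 2 (0.0579), while GATL5 fell 1.77-fold (adjusted p = 0.000298) and MUM2 fell 1.42-fold (adjusted p = 0.00110).

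**Figure D4:**
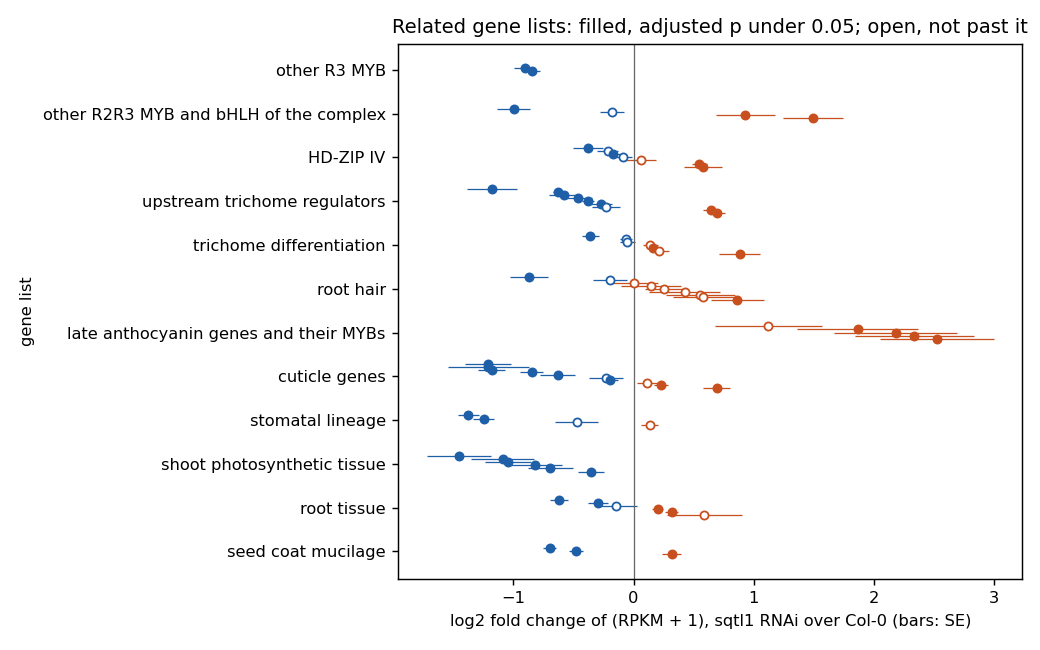
Log2 fold change of (RPKM + 1) in the sqtl1 RNAi line over Col-0 for the tested genes of 12 related lists, with SE bars; filled points passed adjusted p under 0.05 and open points did not, and points right of the line at 0 are higher in the RNAi line. Of 72 genes, 18 passed as higher and 31 as lower, beside 25.2% and 27.5% over all genes tested. The 4 called anthocyanin genes lie farthest to the right and all 6 shoot photosynthetic genes on the left.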

How the data were processed

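The authors deposited 1 table of RPKM values for the 6 libraries. It also holds each gene's length (kb) and a multiple-mapping ratio, per the file headers a weighted fraction, taken here to be the part of the reads with more than 1 mapping place. That ratio was 0 for 9 of the 10 genes and 0.00151 for GL2. Trimmomatic 0.39, Bowtie2 2.2.6 and the TAIR10 genome are named, per the submitters' processing notes, without their roles. The sources used here do not give the counting tool, the use of strand or the treatment of multiply mapped reads. Of 38199 lines, 5 named no gene and were left out, and 37898 gene identifiers were in RefSeq's TAIR10.1 table, which gave symbols and windows.

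Depth was estimated from the step that 1 read is worth in genes shorter than 0.4 kb. Of low values, 99.9% to 100% lay within 0.0055 RPKM of a multiple of 0.5 reads after an offset of 0.25 reads, where chance gives 20.1% to 28.3%, and 59.2% to 66.5% lay on whole reads. Each unit could be 1 read or 1 pair, so estimated reads serve only for floors of 3 reads, intervals, a search for libraries deposited more than once (none seen) and voom weights.

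The comparison used limma 3.58.1 (R 4.3.3) on log2(RPKM + 1) over genes that averaged 1 RPKM or more, with a variance trend and Benjamini-Hochberg adjustment. Errors are SDs over n = 3. The labels call the samples biological replicates without saying how they were grown apart, so p-values measure the spread between these samples. On data simulated for this comparison over 19192 genes, the test recovered 1 of 47 genes changed 1.25-fold and 19 of 50 changed 1.5-fold. It recovered 49 of 50 changed 2-fold and 47 of 47 changed 4-fold, with 18 false calls. It made 3 calls where nothing was changed. So few genes were changed there, whereas 52.6% of genes tested passed in the real data, and the adjusted p depends on that share. The simulated rates therefore do not describe the real comparison, where TTG1 passed at 1.25-fold and KAK at 1.13-fold.

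The 10 genes and the 12 related lists (95 genes, all found in the table) were chosen with earlier results of these data known. Named are the 10 genes, every gene of the 3 family lists, up to 4 genes per other list and direction with the largest change among those past the test, and the 2 genes closest in pattern to each of the 3 most changed genes. The alternatives were other pseudocounts, filters and scalings, voom and library weights, a replicate block and leaving out each library. The result for 1 gene next to these is not reported here.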

Additional observations from a re-analysis of the deposited data

How the results depend on the processing

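MYB106, MYB16, TTG1 and GL2 kept their direction and their call in every setting in which they were tested. MYB106 and GL2 were not tested with a filter at a mean of 5 RPKM, where MYB16 and TTG1 remained, so that setting gave 2 of the 10 as lower and 0 as higher. The count of the 10 genes called as higher was 2 with library weights, whose estimation did not converge fully, 0 with a replicate block and 0 to 2 when 1 library was left out. The count called as lower was 4 each time 1 library was left out. With the replicate block the log2 fold change of EGL3 was 0.29 with an adjusted p of 0.0521, and with 1 library left out it lay between 0.24 and 0.34. For ETC1 it was 0.45 with library weights and between 0.21 and 0.57 with 1 library left out. The 3 genes below the filter depended on the scale: the log2 fold change was -2.61 for GL1, -0.32 for GL3 and -0.80 for TRY with a pseudocount of 0.1, -0.23 for GL1 and -0.041 for TRY with a pseudocount of 5, and -3.77, -0.36 and -1.31 for GL1, GL3 and TRY with voom weights and no filter, an alternative chosen after seeing the data. Over all genes, 7717 were higher with library weights, and leaving out 1 library gave 3495 to 5538 higher and 4011 to 6034 lower. Over the 12 lists, 30 genes were higher with library weights, and leaving out 1 library gave 12 to 28 higher and 20 to 32 lower. The sign turned for PDF2, at -0.070 to 0.18 when 1 library was left out and negative only without RNAi replicate 1, and for RBCS1A, at 0.10 with quantile normalization. With no filter, the calls of WER, HDG7, HDG2, ATML1, ZFP6, RSL4, LDOX, 5GT, CER1, PHO1 and the shoot genes were lost. Of 54 named genes tested, 31 had the same call in every setting. Same-numbered libraries did not deviate together (correlations of -0.06 to 0.09, and 3 of 6 libraries correlated best with their own number), and the replicate block changed no other call of the 10 genes, while among the genes of the lists named it ended those of ATML1, KAK, LHCB1.3, RBCS1A and PHO1 (adjusted p of 0.0654, 0.0543, 0.0679, 0.114 and 0.0666). The cause of these changes was not tested. At these depths the voom fit with no filter shifted the median log2 fold change of all genes to -0.12.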

Other observations

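Genes outside the pathway tracked MYB106, GL2 and MYB16 across the 6 libraries. Likeness was the distance between the 6 values of log2(RPKM + 1) minus their Col-0 mean, over 13933 candidate genes that averaged 5 RPKM or more. Closest to MYB106 were AT2G39920, a HAD-superfamily acid phosphatase gene that fell from 11.7 ± 0.131 to 2.95 ± 0.171 RPKM, and AT1G71840, a WD-40 repeat gene that fell from 17.3 ± 0.651 to 4.33 ± 0.116 RPKM. Their folds of 3.96 and 3.99 were far below the 43.6-fold of MYB106, because a change of a low gene is compressed on the log2(RPKM + 1) scale. Closest to GL2 were AT5G27390, a PsbP-family gene at 35.8 ± 0.318 and 17.6 ± 1.01 RPKM, and WIH3, a gene for a cysteine-rich transmembrane module protein, at 8.57 ± 0.343 and 3.58 ± 0.0917 RPKM. Closest to MYB16 were AT4G01935 at 14.2 ± 0.644 and 8.15 ± 0.612 RPKM and GATL3, a galacturonosyltransferase-like gene, at 13.1 ± 0.411 and 7.84 ± 0.495 RPKM. All 6 were lower in the RNAi line, which their choice by likeness to lowered genes fixed.

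TRY lies beside SPCH, the gene that starts the stomatal lineage, and both were low. SPCH, which was named after its values were seen, measured 0.80, 0.68 and 0.56 RPKM in Col-0 and 0.43, 0.16 and 0.18 RPKM in the RNAi line. The groups did not overlap, and with no filter SPCH passed as lower (limma adjusted p = 0.0448). SWEET3, on the other side of TRY, was at 0.637 ± 0.0896 and 0.627 ± 0.223 RPKM. WRKY46, beside CPC, was at 0.253 ± 0.0987 RPKM in Col-0 and 1.23 ± 0.306 RPKM in the RNAi line.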
